A study of Mus musculus with 7 samples.

Results

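GABA-A receptor subunits were examined in brain RNA of 7 male mice through every array probe whose annotated gene symbol was Gabra2, Gabra3, Gabra4, Gabra5, Gabra6, Gabrb1 or Gabrb2. These 7 genes, 5 encoding alpha and 2 encoding beta subunits, had 8 probes among the 25697 on the Illumina array, and they stand beside 16593 gene symbols in all. All mice were of the C57BL/6J strain and 21 weeks old. In 4 wild-type mice both alleles were those of C57BL/6J, and 3 mice were homozygous for a knockout (ko) allele of the Duf1220 protein domain. The sources used here do not say how the allele was made. The labels give each mouse 1 array, named below by its group and replicate number. They name the tissue as brain without a region, and the mouse line is described in the series title as hyperactive with reduced fecundity.

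The GABA-A receptor is a chloride channel of 5 subunits that opens when GABA, the main inhibitory transmitter of the brain, binds between an alpha and a beta subunit. The alpha subunit sets where the receptor sits and which drugs act on it: receptors with alpha 2, 3 or 5 are sensitive to classical benzodiazepines, and those with alpha 4 or 6 are not. The alpha 6 subunit is made almost exclusively by cerebellar granule cells, alpha 5 is rich in the hippocampus, and alpha 3 is prominent in monoamine neurons and the reticular thalamus. Most receptors also hold a gamma or a delta subunit.

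Of the alpha subunit genes, Gabra3 and Gabra6 gave a measurable signal, and their promoters are shown because both start in sequence poor in CG pairs and neither lies inside another annotated gene. RefSeq annotation of GRCm38.p6 places the 250 bases before the first listed Gabra3 start at chrX:72656920-72657169 on the minus strand. Those before the Gabra6 start lie at chr11:42321073-42321322 on the minus strand. Capitals mark TATAAA, the core of a TATA box, read on either strand.
Gabra3: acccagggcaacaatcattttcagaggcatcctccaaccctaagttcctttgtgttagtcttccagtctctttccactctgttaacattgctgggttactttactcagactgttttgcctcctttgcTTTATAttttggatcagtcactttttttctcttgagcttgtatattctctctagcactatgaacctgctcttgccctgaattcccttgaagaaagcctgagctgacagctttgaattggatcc
Gabra6: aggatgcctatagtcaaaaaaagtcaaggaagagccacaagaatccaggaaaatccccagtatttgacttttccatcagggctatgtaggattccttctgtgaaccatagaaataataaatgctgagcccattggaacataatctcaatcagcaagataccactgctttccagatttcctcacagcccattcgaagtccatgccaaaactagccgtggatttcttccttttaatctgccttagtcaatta
The Gabra3 stretch held 0 CG pairs and the Gabra6 stretch 2, against a median of 6 over the 32851 promoter windows of the same length. By contrast the stretches before Gabra2 and before the first listed start of Gabrb1 held 18 each. TATAAA occurred in the Gabra3 stretch and in 12.4% of all windows. It also lay before the other listed Gabra3 start and before the first listed Gabrb2 start. GGGCGG, TGACGTCA and CACGTG, searched on both strands, were in neither printed stretch and in 32.7%, 1.55% and 6.02% of all windows. These matches describe letters only. The 7 genes had 11 windows in all, and on chromosome 5 Gabrb1 and Gabra4 overlap at their 5′ ends, with start sites 387 bases apart on opposite strands and each stretch before a start lying inside the other gene.

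Of the 8 probes, 4 exceeded an intensity of 16 on 3 or more arrays and 4 stayed under 16 on all 7. The deposited intensities are background-subtracted, so a probe without signal scatters around 0, and negative values reached a size of 4.19 at their 90th percentile. Gabra4 (probe ILMN_1237870) read 1.57 to 7.60 over the 7 arrays, Gabra2 (ILMN_2594355) -2.41 to 2.32 and Gabra5 (ILMN_2619378) -3.10 to -0.80. Groups overlapped for Gabra4 and Gabra2. For Gabra5 every knockout array read above every wild-type array, yet all 7 readings were below 0 and inside the scatter of probes without signal. No level and no comparison can be drawn for these 3 genes. A reading near 0 describes the probe and not the absence of the transcript, since Snap25, a synaptic protein gene of all neurons, also read -3.20 to -0.10 at its only probe here.

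Gabrb1 encodes the beta 1 subunit, and its probe was the brightest of the 8. Probe ILMN_2826167 read 560, 1273, 947 and 483 on wild-type arrays 1 to 4, and 440.4, 458 and 501 on knockout arrays 1 to 3. Wild-type arrays 2 and 3 stood above all others, while wild-type array 4 lay between the knockout arrays, so the groups overlapped. Wild-type mice averaged 816 ± 366 (SD, n = 4) and knockout mice 467 ± 31.0 (SD, n = 3). Over all 7 arrays its mean exceeded that of 89.2% of the array's probes.

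Gabra3, which encodes the alpha 3 subunit, was the steadiest of the 4 measured probes over the 7 arrays. Probe ILMN_2595601 read 137, 134, 87.6 and 100.3 in wild type, and 115, 92.8 and 109 in knockout. All knockout arrays lay inside the wild-type range. Wild-type mice averaged 115 ± 24.5 (SD, n = 4) and knockout mice 106 ± 11.6 (SD, n = 3), and the highest array read 1.56 times the lowest.

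Gabra6, the cerebellar granule cell subunit, was dim, with the highest readings on knockout arrays 2 and 3. Probe ILMN_2732698 read 19.3, 22.3, 16.9 and 36.9 in wild type, and 26.5, 53.1 and 38.3 in knockout. Wild-type array 4 read above knockout array 1, and the other 3 wild-type arrays lay below every knockout array. Averages were 23.8 ± 8.99 (SD, n = 4) for wild type against 39.3 ± 13.4 (SD, n = 3) for knockout.

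Gabrb2, which encodes the beta 2 subunit of the most abundant receptor type in adult brain, had 2 probes, and 1 of them gave a signal. Probe ILMN_2696413 read 31.7, 82.0, 19.3 and 12.9 in wild type, and 17.0, 18.8 and 21.7 in knockout. A single array, wild-type array 2, stood far above the rest, and the wild-type values enclosed the knockout values on both sides. Averages were 36.5 ± 31.3 (SD, n = 4) for wild type against 19.2 ± 2.39 (SD, n = 3) for knockout. The other probe, ILMN_1247588, is annotated to the same transcript, read -1.40 to 2.98 and gave no level to compare.

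**Figure D1:**
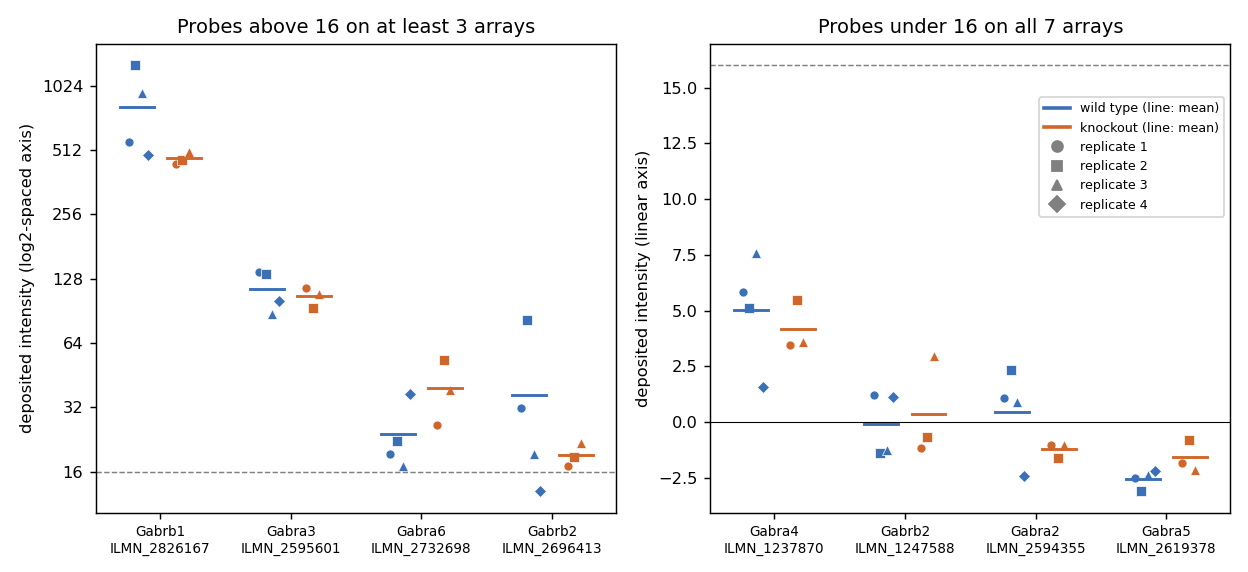
Deposited intensity of each of the 8 subunit probes on the 7 arrays, with 1 point per mouse and a line at the group mean. The left panel, on a log2-spaced axis, holds the 4 probes above 16 on at least 3 arrays, where wild-type replicate 2 is the highest array for Gabrb1 and Gabrb2. The right panel, on a linear axis, holds the 4 probes under 16 on all arrays (dashed line: 16).

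Ranked by signal, the probes ran Gabrb1, Gabra3, Gabra6 and then Gabrb2, followed by the 4 at background. Each probe binds with its own strength, so this is an order of probe signals and not of transcript numbers. Gabrb1 lay above Gabra3 on 7 of 7 arrays, by 2.49 ± 0.60 (SD, n = 7) on the log2 scale within an array. Gabra3 lay above Gabra6 on 7 of 7 arrays, by 1.95 ± 0.72 (SD, n = 7). Gabra6 and Gabrb2 could not be ordered, at a difference of 0.20 ± 1.20 (SD, n = 7), with Gabra6 above on 4 of 7 arrays. Gabra6 was the higher of that pair on all 3 knockout arrays and on wild-type array 4, and the lower on wild-type arrays 1 to 3. The within-array difference of Gabra6 minus Gabrb2 was -0.40 ± 1.28 (SD, n = 4) for wild type against 0.99 ± 0.45 (SD, n = 3) for knockout, which missed the threshold in a two-sided exact permutation test (p = 0.171).

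No subunit probe passed the test between knockout and wild type. For the test, readings below 16 were raised to 16, and the log2 values of all 12833 probes exceeding 16 on 3 or more arrays were fitted with limma, with Benjamini-Hochberg adjustment over all of them at a threshold of 0.05. Of the 4 subunit probes tested 0 passed, and over all tested probes 0% passed and 4.2% had an unadjusted p under the threshold. All differences below are knockout minus wild type on this floored log2 scale, which can shrink or enlarge a difference near the floor. That of Gabrb2 was -0.57 at a floor of 8, -0.65 at 16 and -0.34 at 32. In whole-tissue RNA, fewer cells of a type and less RNA per cell cannot be told apart.

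The Gabrb1 difference was -0.70 (SE 0.32, 95% interval -1.44 to 0.04, limma adjusted p = 0.754), or 1.62-fold lower, and the exact permutation p was 0.20. It rested on wild-type arrays 2 and 3: without array 2 it was -0.45, and without both it was -0.16. For Gabrb2 the difference was -0.65 (SE 0.50, 95% interval -1.79 to 0.49, limma adjusted p = 0.754, exact permutation p = 0.429), and without wild-type array 2 it was -0.17. Setting aside the arrays that read highest in wild type must lower such a difference, so these values show how much of it those arrays carried and no more.

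The Gabra6 difference ran the other way, at 0.73 (SE 0.32, 95% interval 0.00344 to 1.46), or 1.66-fold higher. It had the only unadjusted p under 0.05 among the 4 probes, at a limma p of 0.0491, with an adjusted p of 0.754 and an exact permutation p of 0.114 in 4 against 3 mice, where 35 splits allow no p under 0.0286. Without wild-type arrays 2 and 3 it was 0.50, without knockout array 2 it was 0.48, and at a floor of 32 it was 0.28. For Gabra3 the difference was -0.10 (SE 0.20, 95% interval -0.56 to 0.36, limma adjusted p = 0.880, exact permutation p = 0.60), and with 1 array left out at a time it ran from -0.22 to -0.00401. Groups overlapped at all 4 tested subunit probes, and over all tested probes they did not overlap at 7.39%.

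**Figure D2:**
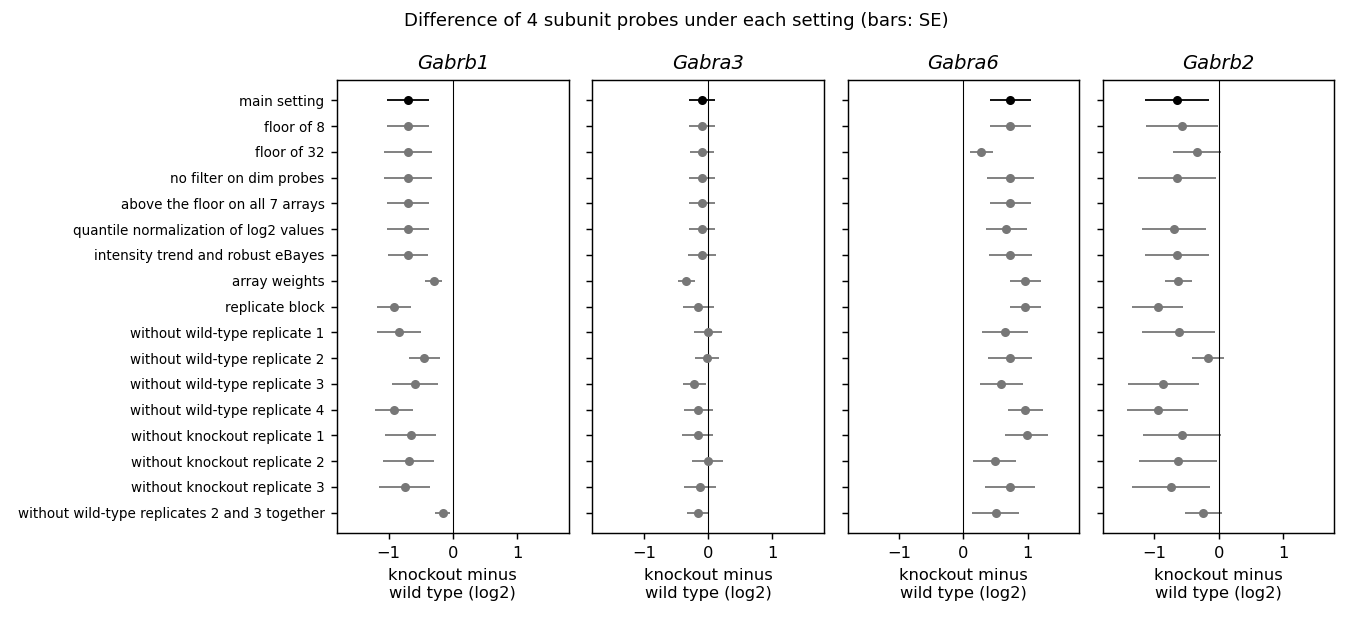
Knockout minus wild-type difference in log2 intensity of the 4 tested subunit probes under each setting, with the SE as bars and the main setting in black. Gabra6 stays above 0 and Gabrb1 below 0 under every setting plotted, and Gabrb1 shrinks to -0.16 without wild-type replicates 2 and 3.

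The arrays themselves differed, and wild-type array 2 most of all. Its mean correlation with the other arrays over the tested probes was 0.932, that of wild-type array 3 was 0.970, and the remaining 5 lay at 0.976 to 0.981. Wild-type array 2 held the highest value of 30.0% of all tested probes and the lowest of 38.8%. As a check of the labels, Pde4dip, the mouse gene of the Duf1220 domain, read 2157 to 2502 in wild type and 1233 to 1498 in knockout at its brightest probe of 3 (ILMN_3064283, limma adjusted p = 0.754). It overlapped at the other probes, and the position of these probes relative to the altered part of the gene was not analysed here, so the check is limited.

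Marker genes of brain cells were read beside the subunits, as the mean log2 deviation of a list from its genes' own means over the 7 arrays. Neuronal markers were present, with 9 of 11 listed genes tested and a summed intensity of 30274 to 34977 in wild type and 31716 to 33576 in knockout. The 2 exceptions were Snap25 and Nefl, both near 0. On the arrays where Gabrb1 was highest, wild-type 2 and 3, the interneuron list stood at -0.42 and -0.32, against 0.01 to 0.19 on the other 5. The monoamine neuron list stood at -0.55 and -0.29 there, against 0.07 to 0.30 on the others. In the interneuron list 9 of 12 genes were tested, its summed intensity was 17963 to 20847 in wild type and 20193 to 21827 in knockout, and Gad2, Dlx5 and Lhx6 read under the floor. In the monoamine list 5 of 8 were tested, with sums of 624 to 1068 and 951 to 1104, and Dbh and Slc18a2 under the floor. The hippocampal and astrocyte lists were highest on wild-type array 2, at 0.45 and 0.25, and the microglia list was lowest there, at -0.42. By mean deviation 3 of 14 lists did not overlap between the groups, and their summed intensities did overlap. The hippocampal list stood at -0.06 to 0.45 in wild type and -0.23 to -0.11 in knockout, with sums of 1860 to 2601 and 1720 to 2175. The thalamic list stood at -0.01 to 0.12 and -0.14 to -0.07, with sums of 5086 to 5857 and 5121 to 5525. The choroid plexus list stood at 0.06 to 0.36 and -0.36 to -0.06, with sums of 7191 to 11227 and 8941 to 10857. By summed intensity, to which the brightest genes add most, 2 other lists did not overlap. The cortical excitatory list stood at 7555 to 9094 in wild type and 4835 to 5900 in knockout. The striatal list stood at 4694 to 5493 and 4335 to 4675. By mean deviation both overlapped, and 3 of 7 tested cortical genes and 1 of 7 striatal genes had a higher mean in knockout. Over all single tested probes, the groups did not overlap at 7.39%. The part of these shifts in the subunit differences was not tested.

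For Gabra6 the matching list is that of cerebellar granule cells. Of its 12 genes 8 were tested, with a summed intensity of 9413 to 10415 in wild type and 9684 to 11490 in knockout. The list stood at -0.02, 0.14, -0.18 and -0.02 on wild-type arrays 1 to 4 and at -0.12, 0.04 and 0.15 on knockout arrays 1 to 3. Of the 8 genes 7 had a higher mean in knockout, as did 53.1% of all tested probes. The median difference was 0.13 on the log2 scale, against 0.02 over all tested probes. The list as a whole shifted less than that median. It averaged 0.02 (SD 0.14) over the knockout arrays against -0.02 (SD 0.13) over the wild-type arrays, and the groups overlapped. Knockout array 2, the highest for Gabra6, stood at 0.04 in the list, and wild-type array 4, the highest wild-type array for Gabra6, at -0.02. Cbln3, Fat2 and Kcnk9 read under the floor on all arrays, and Zic2 exceeded it on fewer than 3. The part of granule cell content in the Gabra6 difference was not tested.

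**Figure D3:**
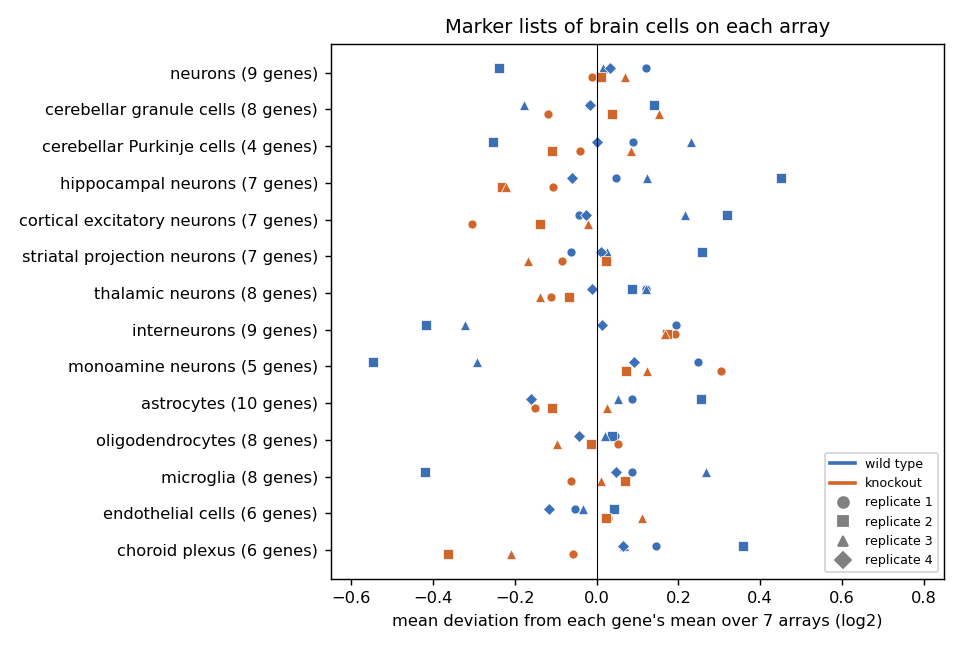
Mean log2 deviation of 14 marker lists on each array, with blue points for wild type, orange points for knockout and marker shape for the replicate number. Wild-type replicate 2 is the array farthest from 0 for, among others, monoamine neurons (-0.55), hippocampal neurons (0.45), microglia (-0.42) and interneurons (-0.42).

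Among GABA-A subunits outside the 7, the delta and gamma 1 genes could be tested. Gabrd, whose delta subunit pairs with alpha 4 in the forebrain and alpha 6 in the cerebellum in receptors for tonic inhibition, was bright at both of its probes. Probe ILMN_2698299 read 904, 677, 1138 and 809 in wild type and 894, 859 and 909 in knockout, a difference of 0.03 (SE 0.19), with the knockout values inside the wild-type range. At its other probe the difference was 0.18 (SE 0.20). Gabrg1, which lies in the same gene cluster on chromosome 5 as Gabra2, Gabra4 and Gabrb1, read 39.8, 10.1, 13.7 and 41.1 in wild type and 30.0, 45.5 and 36.7 in knockout. It was lowest on wild-type arrays 2 and 3, the arrays on which its cluster neighbour Gabrb1 was highest. The Gabrg1 difference was 0.53 (SE 0.39), and without those arrays it was -0.14. Gabrg3, Gabre, Gabrp, Gabrq, Gabrr1, Gabrr2 and Gabrr3 read at most 10.2 on any array and were not tested.

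Of 52 further genes listed for GABA signalling, these subunits included, 43 were on the array, 31 were tested and 0 passed with limma in either direction, and 0 had an unadjusted p under 0.05. Leaving out wild-type array 4 gave 3 such genes, beside 1633 of all 12833 tested probes. Leaving out wild-type array 3 gave 1 gene, beside 289 probes. Array weights gave 4 genes, beside 2649 probes, and the replicate number as a block gave 3, beside 1535. With all 7 arrays, 20 of the 31 genes had a higher mean in knockout and 11 a lower one. Their median difference was 0.06, against 0.02 over all tested probes, of which 53.1% had a higher mean. All 31 genes had adjusted p-values of 0.754 or more. The lists were drawn up with earlier results of these data known.

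Genes that make, transport and break down GABA had 7 tested members, 4 with a higher and 3 with a lower mean in knockout. Aldh5a1, the mitochondrial dehydrogenase that ends GABA breakdown, read 152, 283, 186 and 142 in wild type and 129, 127 and 129 in knockout. It was the only one of the 31 genes whose groups did not overlap, where 7.39% of all tested probes did not. Its difference was -0.51 (SE 0.24, limma adjusted p = 0.754), and without wild-type arrays 2 and 3 it was -0.19. Slc32a1, the vesicular GABA transporter, differed by 0.23 (SE 0.19), the glial GABA transporter Slc6a11 by 0.18 (SE 0.21) and the GABA transaminase Abat by 0.18 (SE 0.21). Without those arrays the differences were -0.00399 for Slc32a1, -0.10 for Slc6a11 and 0.04 for Abat. Slc6a13 differed by -0.21 (SE 0.17) and Slc6a12, the betaine and GABA transporter, by -0.06 (SE 0.20). Without the same arrays Slc6a13 was at -0.22 and Slc6a12 at 0.15. Gad2, one of the GABA-synthesising enzymes, read under 0 on every array, while Gad1, the other, was bright enough to be tested.

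At the inhibitory postsynapse, Gphn encodes gephyrin, the scaffold that anchors GABA-A receptors. It read 513, 320.4, 354 and 573 in wild type and 613, 641 and 504 in knockout, with the lowest readings on wild-type arrays 2 and 3. The Gphn difference was 0.45 (SE 0.23, limma adjusted p = 0.754), and 0.10 without those arrays. Iqsec3, a gephyrin partner, differed by 0.40 (SE 0.26) and by 0.15 without those arrays. Nsf, a fusion ATPase that binds receptor subunits, differed by 0.28 (SE 0.26) and by -0.08 without them. The lower readings were Slitrk3, an adhesion protein of inhibitory synapses, at -0.28 (SE 0.26), Gabarapl1 at -0.19 (SE 0.15) and Gabarapl2 at -0.11 (SE 0.17), both of the family of the receptor trafficking protein GABARAP. Without wild-type arrays 2 and 3 they were -0.32, -0.11 and -0.17, in the same order. Of 16 tested genes in this list 9 had a higher mean and 7 a lower one.

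Among GABA-B receptor and chloride genes, Gabbr1 encodes a subunit of the metabotropic GABA receptor. It read 323, 791, 450 and 254 in wild type and 273, 230 and 262 in knockout, so wild-type arrays 2 and 3 were highest, as for Gabrb1. Its difference was -0.70 (SE 0.35, limma adjusted p = 0.754), and -0.17 without those arrays. Car7, a neuronal carbonic anhydrase, differed by 0.52 (SE 0.42) and by 0.00375 without them. Slc12a2, the chloride importer NKCC1, differed by 0.07 (SE 0.19) and Car2 by 0.06 (SE 0.15), and without those arrays by -0.14 and 0.04. Of the 31 genes, 9 had their highest and 14 their lowest value on wild-type array 2. Over all tested probes 30.0% were highest and 38.8% lowest on that array.

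**Figure D4:**
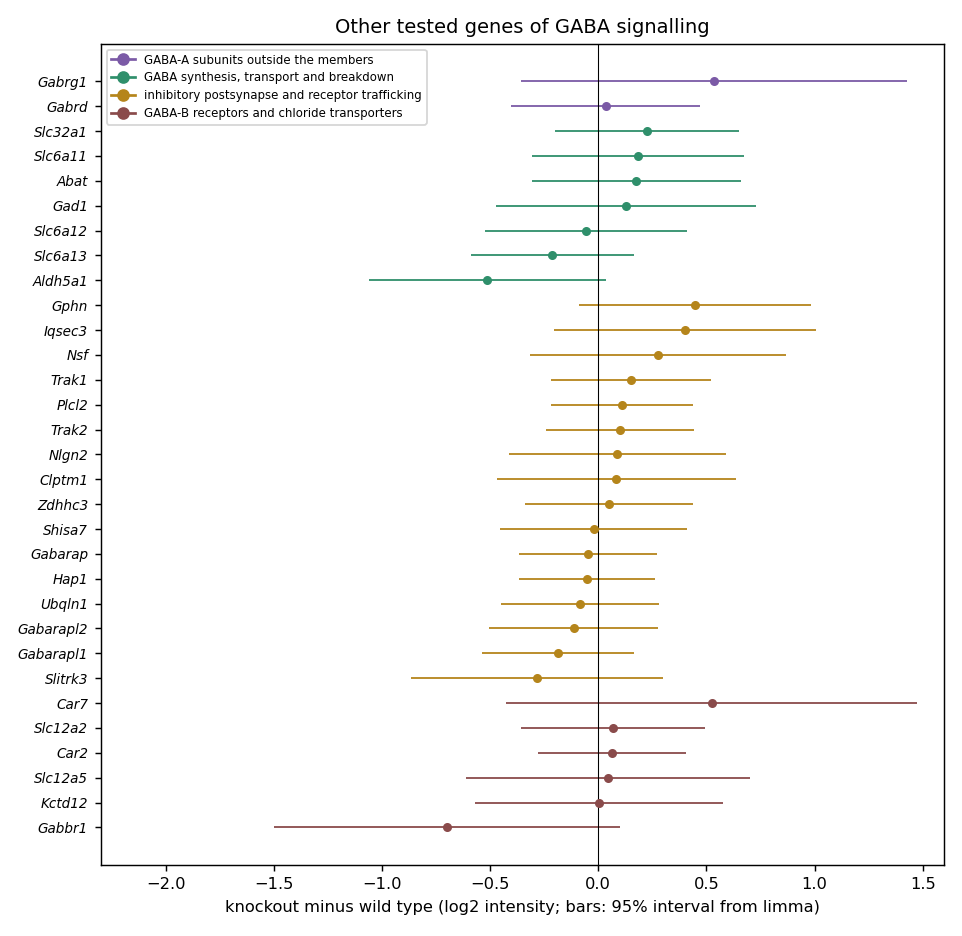
Knockout minus wild-type difference in log2 intensity of the 31 tested genes of GABA signalling outside the 7 subunit genes, coloured by list, with 95% intervals from limma as bars. The intervals of all 31 genes cross 0, with Gabbr1 lowest at -0.70 and Gabrg1 highest at 0.53.

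The genes that tracked each subunit most closely over the 7 arrays were picked as the highest of 9078 by Pearson r, so no p is given, and the shared array differences enter every r. Gabrb1 was followed by Fign, a microtubule-severing ATPase (r = 0.998, Spearman rho = 0.964), and Ubap2 (r = 0.997). Without wild-type arrays 2 and 3, the farthest from its median, r was 0.975 and 0.905 over 5 arrays. Gabrb2 was followed by Traf6 (r = 0.994) and the lysosomal thioesterase Ppt1 (r = 0.993), which fell to 0.892 and 0.921 without wild-type arrays 1 and 2. Gabra3 was followed by Cplx1, a presynaptic complexin (r = 0.963), and Gabarapl2 (r = 0.943). Gabra6 was followed by Brca2 (r = 0.969) and the ribosome-assembly factor Ltv1 (r = 0.965). Between members, r was 0.76 for Gabrb1 with Gabrb2, 0.70 for Gabra3 with Gabrb2 and -0.63 for Gabrb1 with Gabra6, over the same 7 arrays.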

How the data were processed

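Total brain RNA of 4 wild-type and 3 knockout mice was labelled with biotin and read on Illumina BeadArrays. The deposited intensities, on a linear scale, were produced with GenomeStudio 2011.1, per the submitters' processing notes; that they are background-subtracted and normalized between arrays is read from the values, and the sources used here do not name the method. A table of bead signals with 7 unlabelled sample columns was not used here, so no detection p-values entered.

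Probes were named through the platform annotation, which gave 1 symbol for 23978 probes and none for 1719. Values under 16 were set to 16, log2 was taken, and the 12833 probes above 16 on at least 3 arrays entered limma 3.58.1 (lmFit and eBayes under R 4.3.3, with group as the single term), with Benjamini-Hochberg adjustment over all probes. Single values were tested by two-sided exact permutation over 35 splits. A gene of a list was read at its brightest tested probe. All probes of the 7 genes are named, with up to 3 genes per direction and list by smallest p and the 2 genes of highest r per subunit. The members and lists were chosen with earlier results of these data known. By the labels each array is a separate mouse. The same replicate numbers occur in both groups, the labels do not say whether they pair the mice, and the groups were compared as unpaired. Correlations of same-numbered deviations were 0.08, -0.13 and -0.04, and those of unlike-numbered arrays ran from -0.47 to 0.38. With so few arrays these values cannot settle whether the mice were paired. Alternatives covered the floor, the filter, normalization, the variance model, array weights, the replicate number and left-out arrays. The fit was tested on simulated data. The number of arrays limits the precision, and the median SE of a log2 difference was 0.21. Figures were drawn with matplotlib 3.10.9.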

Additional observations from a re-analysis of the deposited data

Results flagged for a closer look

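Iqsec3 in wild type had 1 array far from the others: wild-type array 2 had a log2 intensity of 10.1, while the other 3 wild-type arrays lay between 11.136 and 11.145. In all 36 wild-type sets of 4 values were examined in this way, and chance flags about 1 in 20 such sets. A count of 1 is no more than that rate gives, but the sets share the same 4 arrays. Wild-type array 2 was also the array of lowest mean correlation with the others, at 0.932. What set the Iqsec3 value apart was not tested. None of the 4 tested subunit probes stood out by this measure.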

How the results depend on the processing

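Gabrb1, Gabra3, Gabra6 and Gabrb2 kept the sign of their difference under every alternative that gave a value, and 0 of them passed the limma threshold under any. The lowest adjusted p was 0.0983, for Gabra6 with array weights. Unadjusted limma p with array weights was 0.00331 for Gabra6, 0.0145 for Gabrb2, 0.0313 for Gabra3 and 0.0548 for Gabrb1. With the replicate number as a block it was 0.00442 for Gabra6, 0.00887 for Gabrb1, 0.0407 for Gabrb2 and 0.550 for Gabra3. Both settings also raised the count under 0.05 over all probes, as given below. Leaving out 1 array at a time, the difference ran from -0.91 to -0.45 for Gabrb1, from -0.22 to -0.00401 for Gabra3, from 0.48 to 0.99 for Gabra6 and from -0.95 to -0.17 for Gabrb2. With array weights Gabrb1 was -0.30 and Gabra3 -0.34 (limma adjusted p = 0.199), and at a floor of 32 Gabrb2 was -0.34 and Gabra6 0.28. Gabrb2 was not tested where a probe had to lie above the floor on all 7 arrays. Over all probes 0 passed under every alternative except array weights, with which 28 passed; those weights were 6.71 for wild-type array 1 and 0.104 for wild-type array 2. At an unadjusted p under 0.05 the count over all probes was 539, with 2649 under array weights, 1633 without wild-type array 4, 163 without knockout array 2, 248 without knockout array 1, 266 without knockout array 3 and 289 without wild-type array 3. Of the 31 further GABA genes 0 passed under any alternative, and at an unadjusted p under 0.05 there were 4 with array weights, 3 with the replicate block, 3 on leaving out wild-type array 4, 1 on leaving out wild-type array 3 and 0 under the others. With the replicate number as a block, Gabrb1 was -0.91, Gabra3 -0.15, Gabra6 0.96 and Gabrb2 -0.95, and 0 probes passed, with 1535 at an unadjusted p under 0.05. Wild-type array 4 has no partner in that block, so these differences are those without that array. Depth of signal limits Gabra6 and Gabrb2, which lie near the floor.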
